A study of Arabidopsis thaliana with 121 samples.

Results

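The 10 genes described here encode core parts of the RNA-directed DNA methylation (RdDM) pathway of Arabidopsis thaliana: NRPD1, NRPD2, CLSY1, RDR2, DCL3, AGO4, NRPE1, DRD1, DMS3 and IDN2. They were found in the files by their locus identifiers, and the set was chosen with earlier results of these data known. They make up 10 of the 68157 loci in batch A and of the 68159 loci in batch B, and all 10 passed the filter on low counts in both batches, which left 17943 and 17510 loci for testing.

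RdDM is the plant route that places DNA methylation de novo and keeps non-CG methylation at short euchromatic transposons. RNA polymerase IV, made of the largest subunit NRPD1 and the subunit NRPD2, is brought to chromatin by remodelling proteins of the CLASSY group such as CLSY1, and its transcripts are made double-stranded by RDR2 and diced into small interfering RNAs by DCL3. AGO4 carries these small RNAs to the transcripts of RNA polymerase V, whose largest subunit is NRPE1 and which shares NRPD2 with Pol IV. The DDR complex, which contains DRD1 and DMS3, is needed for Pol V transcription, and IDN2 binds RNA downstream of Pol V.

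The study measured mRNA by 3′-tag sequencing, in which each molecule gives a tag from its 3′ end, in rosette leaves of plants that lack the nucleosome remodeller DDM1, its partner proteins CDCA7α and CDCA7β, or several of them. Batch A held 39 libraries of 16 genotypes, each from a pool of 3 plants of 31 days, and batch B held 82 libraries of 17 groups, each from a leaf of an individual plant of 28 days. All lines were in the Col-0 background, so that Col_0 in batch A and WT in batch B are the unmutated plants. The wild type gave 3 libraries in batch A and 5 in batch B.

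In batch A, cdca7a_1 carried a T-DNA in the CDCA7α promoter that raises its expression, cdca7a_2 carried a T-DNA that disrupts the coding sequence, and cdca7b_1 and cdca7b_2 were CRISPR alleles of CDCA7β. The double mutant cdca7ab_1 joined the cdca7a_2 insertion to a CRISPR deletion, and cdca7ab_2 was made by CRISPR in both genes. The ddm1-2 allele was present in the remaining 9 genotypes. F2_ddm1 was in its first homozygous generation, ddm1_2_G2 and ddm1_2_G5 were later generations as their names say, and ddm1_cdca7a_1, F2_ddm1_cdca7a_2, ddm1_cdca7b_1, ddm1_cdca7b_2, ddm1_cdca7ab_1 and ddm1_cdca7ab_2 combined ddm1-2 with cdca7 alleles, by crossing for the cdca7a alleles and by CRISPR in plants already homozygous for ddm1-2 for the rest. F2_ddm1, F2_ddm1_cdca7a_2, ddm1_2_G2, ddm1_cdca7a_1, ddm1_cdca7ab_2, cdca7a_2, cdca7b_2, cdca7ab_1 and cdca7ab_2 had 2 libraries each and the other 7 genotypes had 3.

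In batch B, cdca7_a, cdca7_b and cdca7_ab were the untransformed mutants. The other 13 groups came from first-generation transformation with a construct, and their plants were cdca7_ab (9 groups) or cdca7_a (4 groups). The study describes transforming cdca7α-2 while CDCA7α and CDCA7β were not yet both fully lost. The 9 groups therefore differ from untransformed cdca7_ab in history as well as in construct. The suffix CDCA7 marks the tagged full-length CDCA7α, p6966 the same gene under the promoter of a natural accession, d26nt and d4nt that promoter with an indel removed, C183S_C209S and R35A_N42L amino acid changes, and dCter and dNter truncations. The CDCA7_no_YFP plants were sisters without the transgene marker. The study reports a lack of transgene expression for dNter. In R35A_N42L, transposon loci took 0.62% to 0.73% of the counts in replicates 1, 3 and 6. They took 0.25% to 0.32% in replicates 2, 4 and 5. The share was 0.62% to 0.70% in cdca7_ab and 0.25% to 0.30% in WT. A construct group can therefore hold unlike plants, and its mean need not reflect a working construct. These 17 groups held 2 to 7 libraries.

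Library totals were 2087927 to 4439892 counts in batch A and 1194658 to 5206149 in batch B. Plastid transcripts took 5.55% to 43.9% of the counts in batch A, with 4 libraries above 30% (cdca7ab_2 replicate 1, F2_ddm1 replicate 2, F2_ddm1_cdca7a_2 replicate 3 and ddm1_cdca7b_2 replicate 3), and 4.39% to 22.9% in batch B. The leaf markers RBCS1A, RCA, LHCB1.3 and CA1 had at least 282 counts in every library, while the meristem gene STM had at most 1. The seed storage genes CRU3 and SESA3 were at or near 0 except in cdca7_ab_C183S_C209S replicate 4, with 1299 and 1408 counts. DDM1 had at most 5 counts per library and CDCA7β at most 2, so neither checked the labels, and the ddm1-2 allele is a point mutation that leaves the tagged end in place. Transposon loci took 1.63% to 4.69% of the counts in the 22 ddm1 libraries and 0.24% to 1.21% in the other 17 of batch A. CDCA7α had 41, 49 and 66 counts in cdca7a_1 and at most 5 in Col_0.

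The members were shallowly counted. In batch A their highest count in a library ranged from 13 for DMS3 to 60 for NRPD2 and AGO4, and the median count from 6 for DRD1 and DMS3 to 37 for NRPD2. Values below are CPM, that is, counts scaled to the size of the library after TMM scaling, and fold changes are on the log2 scale with standard errors (SE) from edgeR's quasi-likelihood fit. A gene was called when its Benjamini-Hochberg adjusted p over all tested loci was at most 0.1 and its absolute log2 fold change at least 1, the limits given in the study's methods. The replicates are separate pools or plants, and in such bulk samples fewer cells of a type and less RNA per cell cannot be told apart.

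The pooled ddm1 contrast set the mean of the 9 ddm1 genotypes (22 libraries) against the mean of the 7 genotypes with an intact DDM1 (17 libraries). No member reached the fold limit, at which 11.6% of all loci were called. By the adjusted p alone, IDN2, DMS3 and NRPD2 rose and NRPE1 fell, while NRPD1, CLSY1, RDR2, DCL3, AGO4 and DRD1 did not pass. These 4 of 10 members stood beside 42.6% of all loci that passed by the adjusted p alone (20.6% higher and 22% lower), a share that the members did not exceed. The median log2 fold change was 0.05 over the members and -0.04 over all tested loci.

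For DMS3 and IDN2, which both rose by 0.63 on the log2 scale in the pooled contrast, the 250 bases before the annotated gene start are printed from the reference genome (TAIR10.1, RefSeq annotation), read 5′ to 3′ on the strand of the gene, to show whether the pair share a short promoter motif. Capitals mark a match to TATAAA (core promoter element), TGGGCC (site II element), AAACCCTA (telo box) or CACGTG (G-box) on either strand.
DMS3, chr3:18260999-18261248, minus strand: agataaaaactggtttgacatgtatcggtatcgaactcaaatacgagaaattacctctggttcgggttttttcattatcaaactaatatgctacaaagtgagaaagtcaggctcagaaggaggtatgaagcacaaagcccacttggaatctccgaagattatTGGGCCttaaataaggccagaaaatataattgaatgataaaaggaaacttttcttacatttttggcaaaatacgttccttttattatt
IDN2, chr3:18030419-18030668, plus strand: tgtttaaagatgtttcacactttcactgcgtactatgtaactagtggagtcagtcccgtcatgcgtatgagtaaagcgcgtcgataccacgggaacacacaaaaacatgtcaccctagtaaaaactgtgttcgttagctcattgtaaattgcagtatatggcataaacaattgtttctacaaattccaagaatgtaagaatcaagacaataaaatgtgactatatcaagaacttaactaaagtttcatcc
The only capitals in both sequences are a TGGGCC in DMS3, 88 to 83 bases before the start, so the pair shared none of these motifs in this window. TGGGCC was also present before DCL3, and before 13.65% of 27443 protein-coding genes. TATAAA was present before NRPD1, CLSY1 and RDR2 and before 47.35% of these genes. AAACCCTA and CACGTG, in neither printed sequence, were present before 4.486% and 6.486% of the genes. The G and C content was 36.4% before IDN2.

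**Figure D1:**
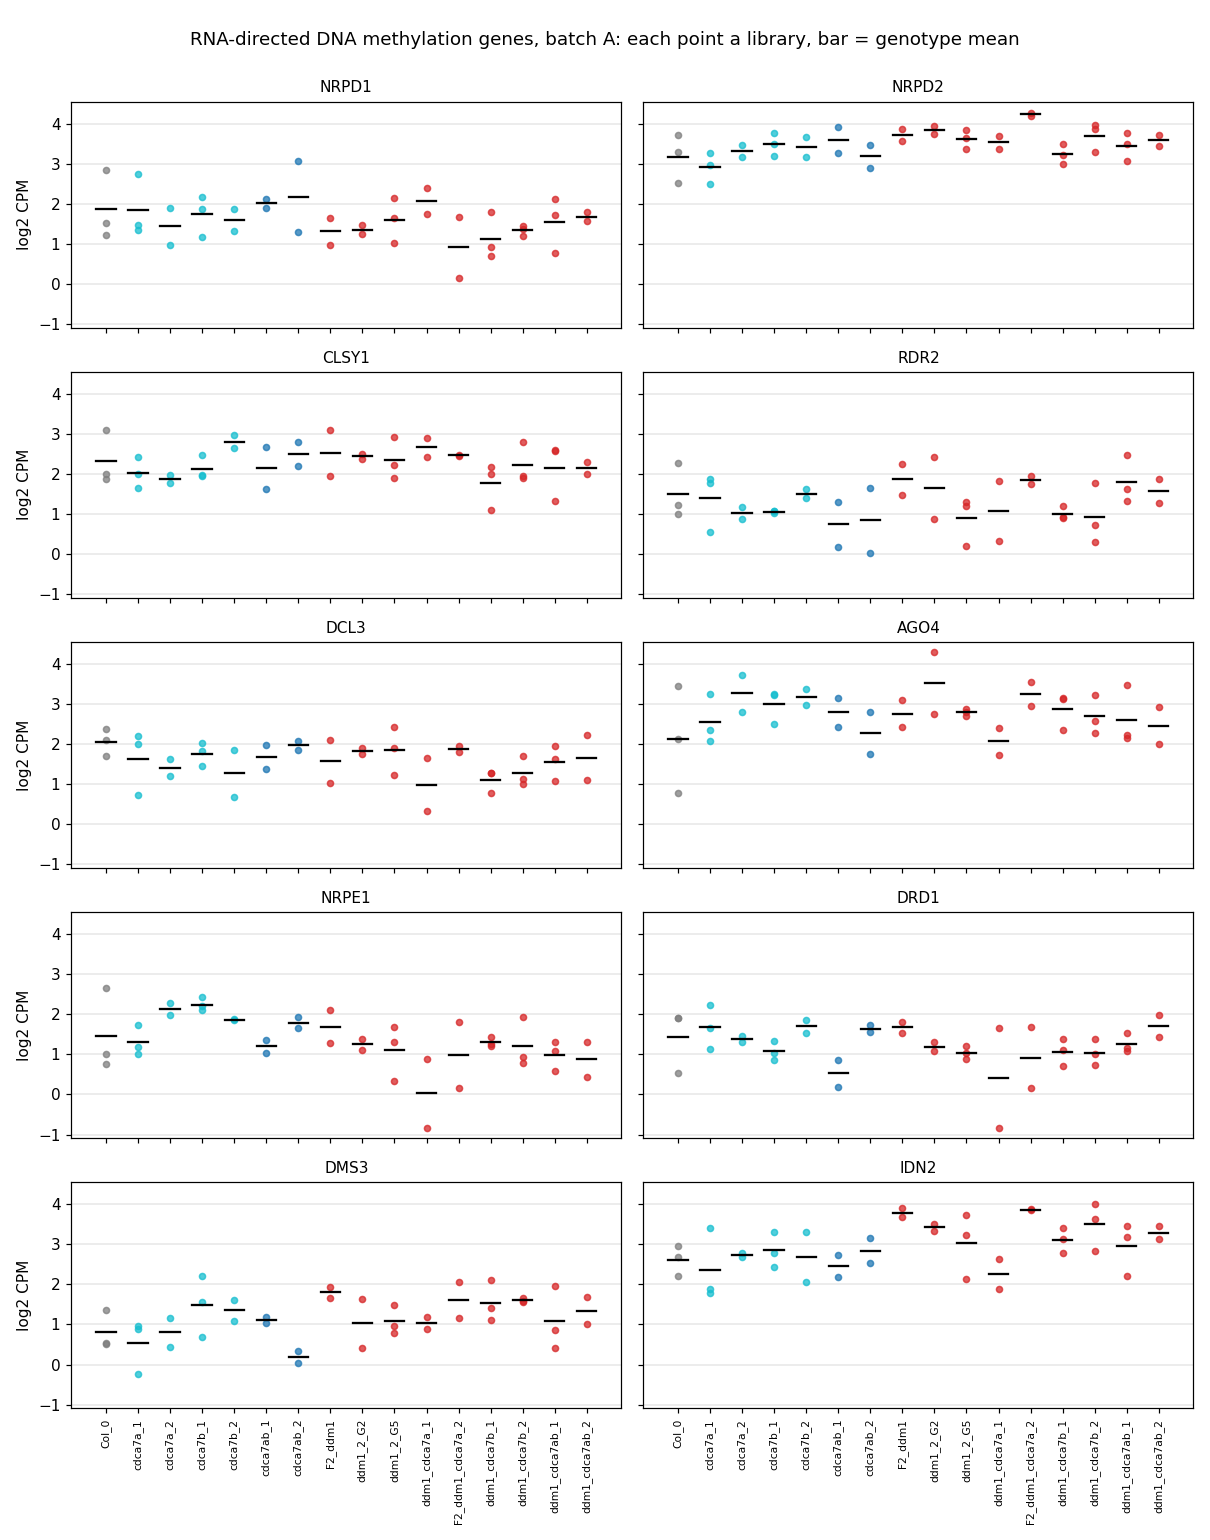
Log2 CPM (y axis) of each RdDM gene in every library of batch A, by genotype (x axis), with genotype means as black bars, Col_0 in grey, cdca7 single mutants in cyan, double mutants in blue and ddm1 genotypes in red. IDN2 sits highest in F2_ddm1 and F2_ddm1_cdca7a_2 (mean 13.3 and 13.99 CPM), and NRPE1 lowest in ddm1_cdca7a_1 (mean 0.645 CPM).

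IDN2 (AT3G48670, TAIR10.1 chr3:18030669-18034065, plus strand, up to 9 exons) encodes the RNA-binding protein that acts with its FDM partners downstream of Pol V. It had 5.81, 4.02 and 7.16 CPM in Col_0, 14.4 and 12.2 in F2_ddm1, 10.8 and 9.52 in ddm1_2_G2, and 3.84, 12.6 and 8.75 in ddm1_2_G5. In the double mutants it had 6.06 and 4.01 CPM (cdca7ab_1) and 8.28 and 5.18 (cdca7ab_2). Both F2_ddm1 and both ddm1_2_G2 libraries lay above all 3 Col_0 libraries, the ddm1_2_G5 libraries spanned them, and the double mutants overlapped them. Libraries did not overlap those of Col_0 in 44.2% of all loci for F2_ddm1 and in 38.5% for ddm1_2_G2.

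Over the 22 ddm1 libraries IDN2 ranged from 3.114 to 15.54 CPM with a median of 9.809, against 2.855 to 9.945 with a median of 5.901 in the other 17. The groups overlapped, and the pooled log2 fold change was 0.63 (SE 0.19, edgeR adjusted p = 0.00918). Against Col_0, IDN2 was called in F2_ddm1, with a log2 fold change of 1.23 (SE 0.50, edgeR adjusted p = 0.0939, n = 2 against 3), where 16.7% of all loci were called. It was also called in F2_ddm1_cdca7a_2, at 14.1 and 13.9 CPM, with a log2 fold change of 1.299 (SE 0.50, edgeR adjusted p = 0.0816, n = 2 against 3), where 15.2% of all loci were called. The fitted value was above Col_0 in 8 of the 9 ddm1 genotypes, from -0.40 in ddm1_cdca7a_1 to 1.299, and these comparisons share the Col_0 libraries.

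The single-genotype calls of IDN2 lay close to the threshold. Libraries of high plastid share stood among them, 1 of the 2 F2_ddm1 and 1 of the 2 F2_ddm1_cdca7a_2 libraries, and the part of that share in the result was not tested beyond leaving those libraries out. Without the 4 libraries above 30% the log2 fold change was 1.101 (edgeR adjusted p = 0.313) in F2_ddm1 and 1.33 (edgeR adjusted p = 0.262) in F2_ddm1_cdca7a_2. The pooled value was then 0.68 (edgeR adjusted p = 0.0196). Leaving out any other library that enters a single-genotype call, except Col_0 replicate 3, also ended it, with edgeR adjusted p of up to 0.286 and 0.237, as did fits of only the groups compared (edgeR adjusted p = 0.118 and 0.132).

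NRPD2 (AT3G23780, chr3:8567572-8574209, minus strand, 8 exons), the subunit shared by Pol IV and Pol V, was the deepest counted member, with at least 21 counts in every library of batch A. It had 5.14, 9.19 and 12.6 CPM in Col_0, 12.9 and 14.9 in ddm1_2_G2, 11.85, 13.8 and 9.80 in ddm1_2_G5, 14.4 and 9.07 in cdca7ab_1, and 10.6 and 6.82 in cdca7ab_2. Apart from ddm1_2_G2, which lay wholly above Col_0, these groups overlapped the Col_0 range.

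Among all genotypes NRPD2 was highest in F2_ddm1_cdca7a_2, at 18.7 and 17.8 CPM, and both libraries lay above all others of batch A. In 41.3% of all loci the libraries of this genotype did not overlap those of Col_0. Its log2 fold change against Col_0 was called there at 1.03 (SE 0.33, edgeR adjusted p = 0.0313, n = 2 against 3). In the pooled contrast it was 0.36 (SE 0.12, edgeR adjusted p = 0.0181), with 7.378 to 18.68 CPM in ddm1 libraries and 5.112 to 14.42 in the others. Without the libraries above 30% plastid the single-genotype value was 1.09 (edgeR adjusted p = 0.119) and the pooled value 0.41 (edgeR adjusted p = 0.0243). The call was also lost without Col_0 replicate 1 (0.77, edgeR adjusted p = 0.112) and without either library of the genotype (edgeR adjusted p = 0.148 and 0.119). A fit of only the groups compared ended it as well (1.07, edgeR adjusted p = 0.216). A near-identical copy, NRPD2B (AT3G18090), held 184 counts in batch A beside 1476 for NRPD2, and reads of the pair could be split between them in the authors' counting.

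DMS3 (AT3G49250, chr3:18255960-18260998, minus strand, 7 exons), a component of the DDR complex, had 0.894, 0.861 and 2.01 CPM in Col_0, from 4, 3 and 7 counts. It had 2.59 and 3.28 CPM in F2_ddm1, 0.772 and 2.54 in ddm1_2_G2, 2.24, 1.17 and 1.40 in ddm1_2_G5, 1.73 and 1.48 in cdca7ab_1, and 0.46 and 0.706 in cdca7ab_2. The F2_ddm1 libraries were above Col_0, the cdca7ab_2 libraries below it (no overlap of cdca7ab_2 with Col_0 in 17.9% of all loci), and the others overlapped it. DMS3 was the only member besides NRPD2 whose fitted value was above Col_0 in all 9 ddm1 genotypes (0.29 to 1.21), and none of these 9 was called. For both genes the 9 comparisons share the Col_0 libraries.

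In the pooled contrast DMS3 stood at 0.63 (SE 0.25, edgeR adjusted p = 0.042), with a median of 2.175 CPM in ddm1 libraries and 1.372 in the others. The edgeR adjusted p was 0.107 without ddm1_2_G2 replicate 3 and 0.126 with no filter on low counts. The locus lies over AT3G49240 on the opposite strand, which had 780 counts in batch A beside 248 for DMS3. The counts used are those of the sense strand.

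NRPE1 (AT2G40030, chr2:16714460-16723718, plus strand, up to 18 exons), the largest subunit of Pol V, moved the other way. It had 1.12, 1.44 and 5.73 CPM in Col_0, 2.06 and 1.59 in ddm1_2_G2, 1.92, 2.64 and 0.70 in ddm1_2_G5, 2.02 and 1.48 in cdca7ab_1, and 3.22 and 2.59 in cdca7ab_2. Among the Col_0 libraries replicate 3 stood above the others, and apart from the lowest ddm1_2_G5 library all of these values lay inside the Col_0 range. Replicate 3, with 26.5% plastid counts, was also the highest Col_0 library for NRPD1, NRPD2, CLSY1, RDR2, AGO4, DMS3 and IDN2. For these genes the upper edge of the Col_0 range, and overlap with it, thus rests on that single library. The share of all loci highest in it was not taken.

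Over the 22 ddm1 libraries NRPE1 ranged from 0 to 3.748 CPM with a median of 1.789, against 1.117 to 5.731 with a median of 3.061 in the other 17. The pooled log2 fold change was -0.76 (SE 0.26, edgeR adjusted p = 0.0186). In ddm1_cdca7a_1, where NRPE1 had 0 and 3 counts, the log2 fold change against Col_0 was -2.13 and not called (SE 0.89, edgeR adjusted p = 0.217). A count of 0 allows up to 3 counts in that library. Leaving out ddm1_cdca7a_1 replicate 2, so that this line was represented by the library with 0 counts, moved the pooled value to -1.23, past the fold limit, and without the libraries above 30% plastid it was -0.58 and no longer passed (edgeR adjusted p = 0.106).

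**Figure D2:**
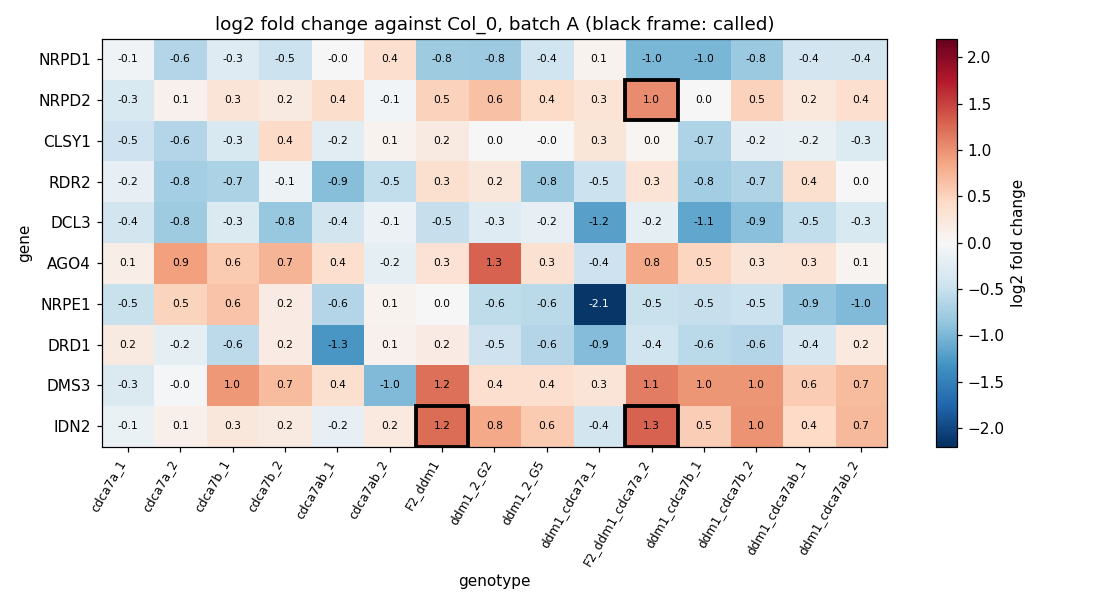
Log2 fold change against Col_0 (colour and printed value) of the 10 RdDM genes (rows) in the 15 other genotypes of batch A (columns), with black frames around called values. The 3 frames are IDN2 in F2_ddm1 and IDN2 and NRPD2 in F2_ddm1_cdca7a_2, and the column of each cdca7 single or double mutant has none.

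Of the Pol IV arm, NRPD1 (AT1G63020, chr1:23354685-23362589, minus strand), its largest subunit, had 1.79, 2.30 and 6.59 CPM in Col_0, 1.80 and 2.22 in ddm1_2_G2 and 2.56, 1.47 and 3.85 in ddm1_2_G5. The double mutants had 3.17 and 3.80 CPM (cdca7ab_1) and 7.82 and 1.88 (cdca7ab_2). The ranges overlapped throughout. In the pooled ddm1 contrast NRPD1 had a log2 fold change of -0.47 (SE 0.25, edgeR adjusted p = 0.143). Fitted values were below Col_0 in 8 of 9 ddm1 genotypes, and these comparisons share the Col_0 libraries.

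CLSY1 (AT3G42670, chr3:14755798-14760629, minus strand), which helps recruit Pol IV, had 3.13, 3.44 and 8.02 CPM in Col_0, 4.63 and 5.08 in ddm1_2_G2, and 7.05, 4.11 and 3.15 in ddm1_2_G5. It had 5.77 and 2.53 CPM in cdca7ab_1 and 6.44 and 4.00 in cdca7ab_2, inside or close to the Col_0 range. Its pooled ddm1 value was 0.08 (95% confidence interval -0.30 to 0.45), so a change of more than 0.45 in either direction lay outside the interval.

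RDR2 (AT4G11130, chr4:6780449-6784632, plus strand), the RNA-dependent RNA polymerase that works with Pol IV, had 1.79, 1.44 and 4.30 CPM in Col_0, 1.29 and 4.76 in ddm1_2_G2 and 1.92, 0.587 and 1.75 in ddm1_2_G5. It had 0.577 and 1.90 CPM in cdca7ab_1 and 0.46 and 2.59 in cdca7ab_2. Libraries of the same genotype differed by as much as the genotypes did. The pooled ddm1 value was 0.30 (95% confidence interval -0.24 to 0.85).

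DCL3 (AT3G43920, chr3:15753387-15760859, plus strand), the dicer of the pathway, had its highest genotype mean in Col_0, at 2.68, 4.59 and 3.72 CPM. It had 2.83 and 3.17 CPM in ddm1_2_G2, 4.80, 1.76 and 3.15 in ddm1_2_G5, 2.02 and 3.37 in cdca7ab_1, and 3.68 and 3.06 in cdca7ab_2. Fitted values were below Col_0 in all 9 ddm1 genotypes (-1.19 to -0.17), none was called, and they share the Col_0 libraries. Against all 7 DDM1 genotypes the pooled value was -0.18 (95% confidence interval -0.62 to 0.25). The value with the smallest adjusted p, in ddm1_cdca7b_1, was -1.15 (SE 0.53, edgeR adjusted p = 0.131).

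AGO4 (AT2G27040, chr2:11536502-11542391, minus strand), the Argonaute that binds the small RNAs, had the largest fitted coefficient of variation among the members in batch A (0.422). It had 3.80, 1.15 and 10.3 CPM in Col_0, 6.17 and 19.0 in ddm1_2_G2, 6.41, 6.76 and 5.95 in ddm1_2_G5, 8.36 and 4.85 in cdca7ab_1 and 6.44 and 2.82 in cdca7ab_2. The high ddm1_2_G2 mean rested on replicate 3, and the log2 fold change of 1.3 against Col_0 was not called (SE 0.59, edgeR adjusted p = 0.15). Without Col_0 replicate 3 it was called, at 2.278 (edgeR adjusted p = 0.0142). AGO4 was then also called in F2_ddm1_cdca7a_2, at 1.808 (edgeR adjusted p = 0.0681). Without ddm1_2_G2 replicate 1 the ddm1_2_G2 value was 1.908. Whether AGO4 was called thus depended on single libraries. The pooled ddm1 value was 0.02 (95% confidence interval -0.44 to 0.48).

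DRD1 (AT2G16390, chr2:7097280-7101351, plus strand), the remodeller of the DDR complex, had 0.894, 3.16 and 3.15 CPM in Col_0, 1.54 and 1.90 in ddm1_2_G2 and 1.28, 1.47 and 1.75 in ddm1_2_G5. The double mutants had 0.577 and 1.27 CPM (cdca7ab_1) and 2.76 and 2.35 (cdca7ab_2). All of these but the lower cdca7ab_1 library lay inside the Col_0 range. The pooled ddm1 value was -0.185 (95% confidence interval -0.68 to 0.31).

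Counted over the single ddm1 generations against Col_0, 1 of 30 member tests was called, beside 13.9% of all locus tests in these 3 comparisons. The 6 ddm1 cdca7 lines gave 2 calls in 60 member tests, beside 13% of all locus tests. All 3 calls were rises, beside 9.2% and 8.69% of all locus tests called as rises. At an unadjusted p under 0.05 there were 2 rises among the 30 and 3 rises and 2 falls among the 60. Of all locus tests in these comparisons, 26.5% and 25.1% had such a p. DESeq2 called 1 of the 30 and 3 of the 60, and no share of all loci was taken for DESeq2.

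**Figure D3:**
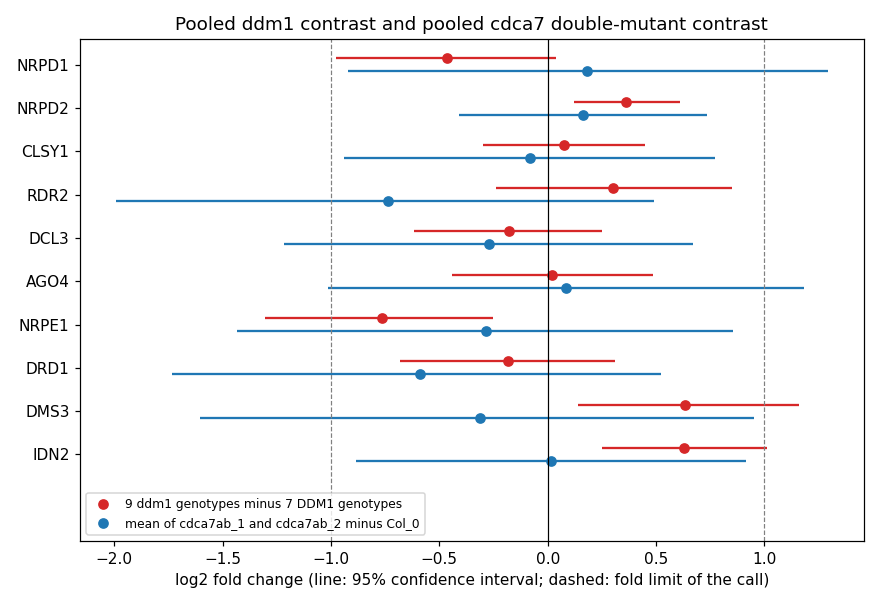
Log2 fold change (x axis, points) with its 95% confidence interval (lines) of each RdDM gene in the pooled ddm1 contrast (red) and in the mean of the double mutants against Col_0 (blue), with dashed lines at the fold limit. IDN2, DMS3 and NRPD2 (red) lie above 0 and NRPE1 below, at 0.63, 0.63, 0.36 and -0.76, and every blue interval includes 0.

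The cdca7 double mutants showed no called member. Against Col_0, 0 of 30 member tests passed in cdca7ab_1, cdca7ab_2 and their mean, where 1.46% of all locus tests were called. No member had an unadjusted p under 0.05 in edgeR, beside 5.32% of all locus tests, and none was called by DESeq2. In the mean of both lines the log2 fold changes ran from -0.74 for RDR2 (95% confidence interval -1.99 to 0.49) to 0.18 for NRPD1 (95% confidence interval -0.92 to 1.29). The IDN2 value was 0.01 (95% confidence interval -0.89 to 0.91), so its interval did not exclude the pooled ddm1 value of 0.63. Intervals of this width include changes of more than 2-fold in several members, which were not detectable at this depth.

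Set directly against ddm1_2_G2, the double mutants again gave 0 calls in 20 member tests (7.49% of all locus tests were called, and DESeq2 called 0). The smallest adjusted p was that of AGO4 in cdca7ab_2, at -1.499 (SE 0.695, edgeR adjusted p = 0.248), which was also the only unadjusted p under 0.05. Such an unadjusted p was found in 18.8% of all locus tests. IDN2 was lower in cdca7ab_1 without overlap of the libraries (5.03 against 10.2 CPM on average), at -1.025 (SE 0.56, edgeR adjusted p = 0.313). The libraries of this comparison did not overlap in 44.7% of all loci.

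The cdca7 single mutants gave 0 calls in 40 member tests, beside 1.98% of all locus tests, and 0 calls by DESeq2. None had an unadjusted p under 0.05, beside 11.9% of all locus tests. The smallest adjusted p was that of DMS3 in cdca7b_1, at 0.95 (SE 0.585, edgeR adjusted p = 0.397). In cdca7a_1, whose CDCA7α counts exceeded those of every other genotype without ddm1, the member fold changes ran from -0.49 to 0.19.

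The addition of cdca7 alleles to ddm1 was tested by setting each ddm1 cdca7 line against the ddm1 line of the nearest generation. None of 60 member tests was called, beside 0.00836% of all locus tests, and DESeq2 called 0. An unadjusted p under 0.05 was found in 5.12% of all locus tests. Both such values among the members belonged to ddm1_cdca7a_1 against ddm1_2_G2, AGO4 at -1.75 (SE 0.715, edgeR adjusted p = 0.337) and IDN2 at -1.24 (SE 0.59, edgeR adjusted p = 0.409). In this line, NRPE1, DRD1, DCL3, AGO4 and IDN2 each had their lowest genotype mean of batch A on the log2 scale. The share of all loci with their lowest mean in this line was not taken. The libraries of the line held 2213432 and 2696025 counts, with at most 6 for NRPE1, DRD1 and DCL3. The comparison of ddm1_cdca7a_1 with ddm1_2_G2 rests on 2 libraries each.

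Later against earlier homozygous generations of ddm1, 0 of 10 members were called in ddm1_2_G5 against F2_ddm1, beside 0.0167% of all loci, with 0 calls by DESeq2. None of the members had an unadjusted p under 0.05, beside 9.07% of all loci. RDR2 had the smallest adjusted p, at -1.16 (SE 0.76, edgeR adjusted p = 0.675), with 1.92, 0.587 and 1.75 CPM in ddm1_2_G5 and 2.22 and 4.22 in F2_ddm1.

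The order of the genotype means was described and not tested. Among the 15 pairs of neighbouring genotypes in that order, the libraries did not overlap in 1 pair for NRPD2 and 1 for NRPE1, and in 0 pairs for the other 8. Neighbours in such an order have close means by construction, so this count cannot show how well genotypes further apart were separated. The same count over all loci was not made. The standard deviation between genotype means on the log2 scale exceeded the median standard deviation within genotypes for NRPE1 (0.54 against 0.37), DRD1 (0.41 against 0.29), IDN2 (0.49 against 0.41) and NRPD2 (0.31 against 0.27). For NRPD1, CLSY1, RDR2, DCL3, AGO4 and DMS3 the spread within genotypes was the larger. Means of several libraries vary less than single libraries, so the sizes of these spreads are not directly comparable. By the mean log2 value Col_0 was the highest genotype for DCL3 and the next to lowest for NRPD2 and AGO4.

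Likeness among the members was measured by Pearson's r over the 16 genotype means of batch A, as a description, since the points share libraries and scaling and 9 of them share ddm1. The most alike were IDN2 and NRPD2 (r = 0.717), DMS3 and IDN2 (0.625) and DMS3 and NRPD2 (0.623), followed by DRD1 and NRPE1 (0.526). NRPD1 ran against IDN2 (-0.788), DMS3 (-0.679) and AGO4 (-0.659). In batch B, over 17 group means, the most alike pair was NRPD1 and NRPD2 (0.700), which stood at -0.565 in batch A. The leading pairs of batch A did not lead there, with -0.504 for IDN2 and NRPD2, 0.12 for DMS3 and IDN2 and -0.001 for DMS3 and NRPD2.

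Of 36 further genes of the pathway, 25 passed the filter in batch A and 27 in batch B. DRM1, the CLASSY loci AT5G20420, AT1G05490 and AT3G24340, AGO6 and AGO9 had at most 7 counts in any library and were not tested. In the pooled ddm1 contrast none of the 25 was called. By the adjusted p alone FDM1, which encodes a protein of the IDN2 family, and NRPE5, a small subunit of Pol V, rose, and DCL2 and SUVH9 fell, 4 of 25 beside 42.6% of all loci.

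The further genes called in single ddm1 genotypes against Col_0 were DCL2, SUVH9 and FDM1. DCL2, a dicer that acts mainly in other small RNA pathways, fell in 4 genotypes. It had 2.905, 2.871 and 4.298 CPM in Col_0, 0.772 and 1.905 in ddm1_2_G2, and 1.281, 1.469 and 1.400 in ddm1_2_G5, and these 5 values were below all Col_0 values. Such a separation from Col_0, in either direction, was found in 38.5% of all loci for ddm1_2_G2 and in 24.4% for ddm1_2_G5. Its log2 fold changes were -1.33 (SE 0.54, edgeR adjusted p = 0.0953) in ddm1_2_G2, -1.25 (SE 0.48, edgeR adjusted p = 0.0891) in ddm1_2_G5, -2.002 (edgeR adjusted p = 0.0272) in F2_ddm1_cdca7a_2 and -1.28 (edgeR adjusted p = 0.0513) in ddm1_cdca7b_1.

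SUVH9, a methyl-DNA binding protein that helps recruit Pol V, had 17.66, 16.65 and 19.48 CPM in Col_0 and fell in ddm1_cdca7b_2 to 8.727, 7.454 and 9.836 CPM (log2 fold change -1.05, SE 0.28, edgeR adjusted p = 0.00808). It also fell in ddm1_cdca7ab_2, at 7.178 and 9.151 CPM (-1.13, SE 0.32, edgeR adjusted p = 0.0181). FDM1 was called as higher in F2_ddm1_cdca7a_2 than in Col_0 (1.31, SE 0.44, edgeR adjusted p = 0.0448). It had 4.47, 9.186 and 4.298 CPM in Col_0 and 9.174 and 21.13 in F2_ddm1_cdca7a_2. The 9.174 of replicate 2 lay inside the Col_0 range. The 21.13 of replicate 3 came from a library with 37.77% plastid counts, and the call was not tested without that library. The calls were 2 of 75 tests in the ddm1 generations and 5 of 150 in the ddm1 cdca7 lines, beside 13.9% and 13% of all locus tests, and DESeq2 called 0 of the 75 and 5 of the 150. In the double mutants, the single mutants and batch B edgeR called none of the further genes, and DESeq2 called 1, as lower in a double mutant than in ddm1_2_G2.

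**Figure D4:**
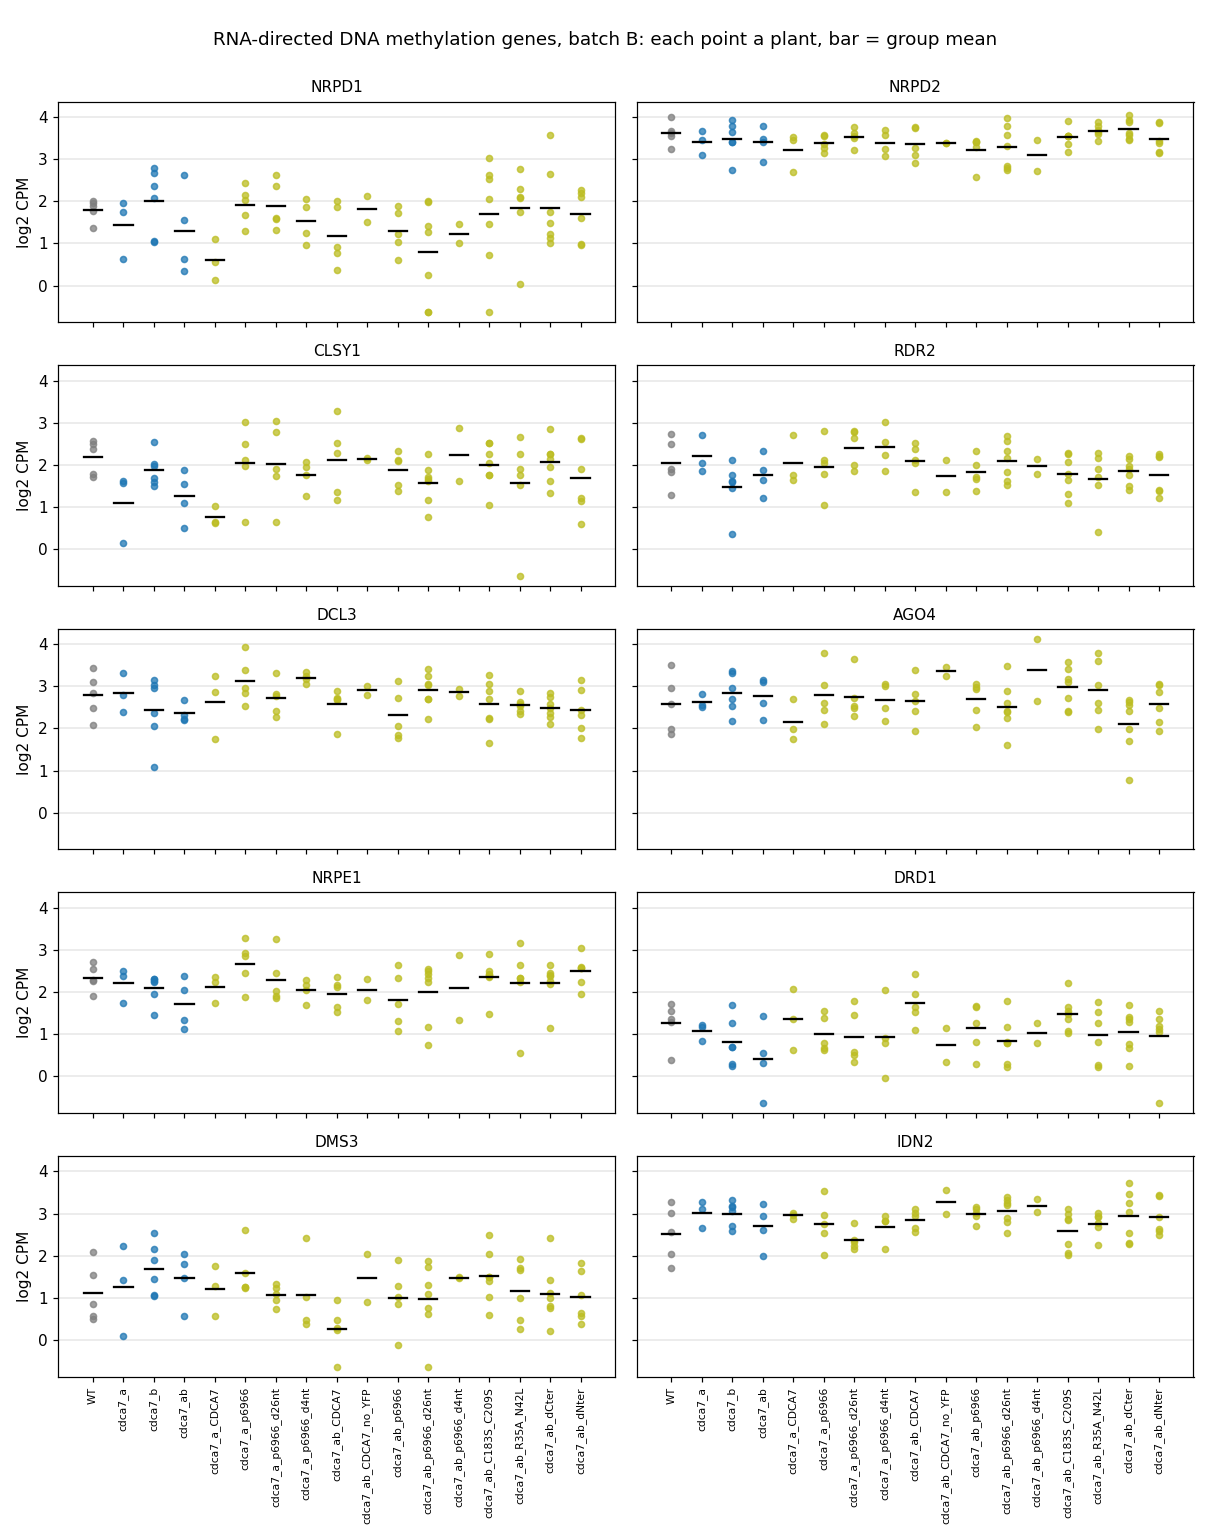
Log2 CPM (y axis) of each RdDM gene in every library of batch B, by group (x axis), with group means as black bars, WT in grey, untransformed mutants in blue and construct groups in olive. CLSY1 is lowest in cdca7_a_CDCA7 (mean 1.064 CPM against 4.048 in WT), and points at -0.63 are libraries with a count of 0.

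Batch B asked the same question in individual plants that lacked CDCA7α, CDCA7β or both, or carried a CDCA7α construct. No member was called in cdca7_a, cdca7_b or cdca7_ab against WT (0 of 30 tests, beside 0.573% of all locus tests), and DESeq2 called 0. An unadjusted p under 0.05 was found in 2 member tests, beside 5.72% of all locus tests. Both were CLSY1. It had 4.99, 4.56, 5.24, 2.62 and 2.82 CPM in WT, 2.42, 0.455 and 2.30 in cdca7_a, and 1.498, 0.771, 3.04 and 2.29 in cdca7_ab. The cdca7_a plants were all below WT, where 6.37% of all loci had no overlap, and 3 of the 4 cdca7_ab plants were. The log2 fold changes were -1.22 (SE 0.57, edgeR adjusted p = 0.479) and -1.06 (SE 0.53, edgeR adjusted p = 0.967), and in batch A the value was -0.64 in cdca7a_2 and -0.08 in the mean of the double mutants.

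Intervals were narrower in batch B than in batch A, with a median half-width of 0.81 for the mutants against WT and 1.15 for the double mutants against Col_0. In cdca7_ab, IDN2 had a log2 fold change of 0.13 (95% confidence interval -0.46 to 0.72) and NRPD2 of -0.22 (95% confidence interval -0.67 to 0.23). For both genes a 2-fold change in either direction lay outside the interval. The IDN2 interval included the pooled ddm1 value of 0.63 from batch A. The NRPD2 interval lay below the pooled ddm1 value of 0.36 from batch A, and overlapped the interval of that value, 0.12 to 0.61. The difference between the contrasts was not tested for either gene. NRPE1 was at -0.68 (95% confidence interval -1.51 to 0.13) and DMS3 at 0.40 (95% confidence interval -0.81 to 1.62), and neither interval excluded the value of the pooled ddm1 contrast.

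Of the 13 construct groups against WT, 0 of 130 member tests was called, beside 0.54% of all locus tests, and DESeq2 called 0. An unadjusted p under 0.05 was found in 1 member test, beside 7.51% of all locus tests. This was CLSY1 in cdca7_a_CDCA7, which had 0.908, 1.39 and 0.898 CPM, below all 5 WT plants, where 8.79% of all loci had no overlap (-1.86, SE 0.64, edgeR adjusted p = 0.144). The other 3 construct groups in the cdca7_a background had CLSY1 means of 2.819 to 4.106 CPM, against 4.048 in WT.

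Against the untransformed mutant of the same background, 0 of 130 member tests was called, beside 0.181% of all locus tests. At an unadjusted p under 0.05 there were 6 rises and 2 falls, beside 5.67% of all locus tests, and DESeq2 called 0. DRD1 in cdca7_ab_CDCA7 had the smallest adjusted p, at 1.51, 4.77, 2.47, 2.25 and 3.20 CPM against 0, 2.05, 0.608 and 0.833 in cdca7_ab (1.55, SE 0.60, edgeR adjusted p = 0.426). The 2 groups overlapped, and a cdca7_ab library with 0 counts of DRD1 allows up to 3.

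Because tags come from transcript ends, the annotated transcripts that received them were also recorded. DCL3, NRPE1, DRD1 and IDN2 had all their batch A reads on a single transcript row, and AGO4, NRPD2 and DMS3 had 99.35%, 99.25% and 97.84% on the leading row. NRPD1, CLSY1 and RDR2 were divided, with 80.81%, 75.38% and 73.05% on the leading row in batch A. For RDR2 the leading row changed between the batches, from AT4G11130.3 in batch A to AT4G11130 in batch B with 59.74%. The batches differ in plant age, tissue sampled and sequencing run, which cannot be told apart.

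Reads antisense to the members were recorded in RPM, scaled by the authors apart from the sense reads and so not comparable with the sense CPM. CLSY1 was above 0 in 36 of 39 batch A libraries (highest 41.04) and in 63 of 82 batch B libraries, whereas IDN2, NRPE1 and RDR2 were each above 0 in 1 of 39. In Col_0 antisense CLSY1 was at 19.17, 4.296 and 14.52. The neighbouring gene AT3G42660 runs towards CLSY1 and ends 96 bases from its 3′ end. Its sense counts ranged from 1 to 22 over batch A. DRD1 and DCL3 overlap a convergent gene by 83 and 43 bases. No test was made on these values.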

How the data were processed

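Leaf mRNA was sequenced as 3′ tags in 121 libraries. Per the study's methods and the submitters' processing notes, the authors removed duplicate molecules by their identifiers, aligned reads with STAR 2.7.11a to TAIR 10 and quantified transcripts and transposons with Salmon 1.10.1. The deposited tables hold estimated counts per transcript on the sense strand, which were summed per locus and rounded to whole numbers. For antisense reads the authors deposited a signal per locus in RPM, scaled apart from the sense reads, which was not tested. No column was left unused for lack of a sample (0 columns).

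Each batch was fitted separately with edgeR 4.0.16 (quasi-likelihood test, TMM scaling, all libraries of the batch in a model of groups) on loci with at least 10 counts in at least 3 libraries, and Benjamini-Hochberg adjustment ran over all tested loci. Calls were limited to loci with adjusted p at or below 0.1 whose log2 fold change reached 1 in size. Log2 CPM values used a prior count of 2. The procedure was tested on simulated data with a smaller spread than that fitted in batch A. Changes were planted only in loci counted more deeply than many members. The simulation therefore cannot show how well changes in such members are found. Alternatives were DESeq2 1.42.0, its size factors, no filter, no fold limit, removal of organelle transcripts, fits of only the groups compared and a replicate block. Single libraries were also left out in turn, only from groups of 2 to 5 libraries (82 fits). The batch B groups of 6 or 7 libraries were not examined in this way. R 4.3.3 and Python 3.11.15 were used.

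All 10 members are named, with full statistics for called comparisons and for the smallest adjusted p of each family, and genes of the further list only where called in ddm1 or double mutant comparisons or passing the pooled contrast by adjusted p. Members and lists were chosen with earlier results of these data known. Coordinates and upstream sequences come from the RefSeq annotation of TAIR10.1, and some upstream sequences are not reported here. Counting intervals and floors cover counting error only.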

Additional observations from a re-analysis of the deposited data

Results flagged for a closer look

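Within the groups of 4 to 7 libraries, which are all in batch B, 130 sets of values of a member were examined for a library far from the others, and 10 held one. By the construction of the limit used, Dixon's critical value, chance flags about 1 in 20 groups. Groups of batch A were too small to be examined. Values are log2 CPM with a prior count of 2. NRPE1 was low in cdca7_ab_C183S_C209S replicate 2 (1.47), in cdca7_ab_R35A_N42L replicate 3 (0.56) and in cdca7_ab_dCter replicate 8 (1.14). Counts of 0 lay behind the low values of CLSY1 in cdca7_ab_R35A_N42L replicate 2 (-0.63) and of DRD1 in cdca7_ab_dNter replicate 3 (-0.63). NRPD1 was low in cdca7_ab_R35A_N42L replicate 1 (0.029, a count of 1). DCL3 was low in cdca7_ab_CDCA7 replicate 1 (1.87), IDN2 in cdca7_a_p6966_d4nt replicate 4 (2.17) and NRPD2 in cdca7_ab_p6966 replicate 3 (2.57). DMS3 was high in cdca7_a_p6966 replicate 2 (2.61), with 6 counts. No member was called in a comparison that used these groups.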

How the results depend on the processing

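Calls in the cdca7 double and single mutants against Col_0, in ddm1_2_G5 against F2_ddm1 and in batch B stayed at 0 under every alternative run. With no filter on low counts the calls were 2 in the ddm1 generations, 1 in the double mutants against ddm1_2_G2 and 1 in the ddm1 cdca7 lines against ddm1, with AGO4 added in each, and the ddm1 cdca7 lines against Col_0 had 3, with IDN2 in ddm1_cdca7b_2 added (1.01, edgeR adjusted p = 0.0758). With no fold limit the pooled ddm1 contrast had 4. Fits of only the groups compared gave 0 calls in the ddm1 generations and 0 in the ddm1 cdca7 lines, as did leaving out the libraries above 30% plastid, an alternative chosen after seeing the data (0 and 0). The causes were not tested. Leaving out single libraries gave 0 to 2 calls in the ddm1 generations, 0 to 4 in the ddm1 cdca7 lines and 0 to 1 in the pooled contrast, and 4 and 1 both came without ddm1_cdca7a_1 replicate 2. No result reversed.

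The labels do not say whether replicate numbers pair the libraries, and they were treated as not paired. Deviations of same-numbered libraries of batch A correlated at -0.552 to 0.557 (median -0.002). Differently numbered libraries gave -0.557 to 0.567 (median 0.001). With the replicate block the ddm1 generations had 0 calls (IDN2 in F2_ddm1 1.265, edgeR adjusted p = 0.101), and the other counts did not move. Depth limits the members: DRD1 reached 10 counts in 7 and DMS3 in 6 of the 39 libraries of batch A.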
